A study of Drosophila melanogaster with 20 samples.

Results

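The cuticle protein genes of Drosophila melanogaster were followed in whole stage 13 embryos over 5 levels of Mef2 activity, by their signal on Affymetrix expression arrays. Members were the genes whose current symbol starts with Cpr, Twdl, Lcp, Ccp84 or Edg and that had a probe set annotated to that gene alone. The brightest probe set stood for each gene, and a gene was kept where its mean log2(signal + 16) over the 20 arrays was at least 4.66. The array held a single-gene probe set for 90 such genes, of 10845 genes in all, and 58 of them passed the filter, of 8358 genes tested. The symbol rule used no comparison between genotypes.

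Mef2 is the transcription factor that drives muscle differentiation, and the series lowered its activity by alleles of the Mef2 gene in the order control, 65, 424, 113 and null, from the highest to the lowest. Control embryos came from the dp cn a px sp stock. The hypomorphic alleles 65, 424 and 113 were induced in that stock, whereas the labels do not say on which background the null allele, 22.21, was made. Mutant embryos were chosen by eye as those without the GFP-marked CyO balancer. Each of the 5 genotypes had 4 arrays, each from a pool of 150 whole embryos that were collected over 30 min, aged for 6.5 h at 25 °C, sorted and left to reach mid stage 13. Nothing in the labels says that the 4 pools of a genotype were separate collections, so a p-value here reflects array-to-array spread that could be technical in part. In whole embryos, fewer cells of a type and less RNA per cell cannot be told apart.

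Insect cuticle is an extracellular coat of chitin fibres and proteins that the epidermis, the trachea, the foregut and the hindgut secrete from their apical side. The Cpr, Ccp84 and most Lcp proteins carry the Rebers and Riddiford domain, which binds chitin. The Tweedle (Twdl) proteins are a separate insect family of cuticle proteins. The Edg genes were named as ecdysone-dependent genes, after the moulting hormone. In the embryo the first larval cuticle is laid down late, after stage 13.

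At stage 13 most of these genes gave weak signals. The current gene table lists 124 genes of the 5 families, of which 58 of the 71 Cpr, 20 of the 26 Twdl, 5 of the 17 Lcp, 4 of the 7 Ccp84 and 3 of the 3 Edg genes had a single-gene probe set. Above the filter were 35 Cpr, 14 Twdl, 2 Lcp, 4 Ccp84 and 3 Edg genes, and 23 Cpr, 6 Twdl and 3 Lcp genes lay below it. The mean signal of the 58 members ran from 10.1 to 141.9, with a median of 30.1 against 71.4 over all tested genes. At the edge of the filter, Cpr65Ec (4.64) and Cpr72Ec (4.65) lay just outside, and Edg78E (4.67) and Cpr78Cc (4.69) just inside. The filter level corresponds to a signal of 9.29, and 25 of the 58 members were above it on every one of the 20 arrays. The median SD between arrays of a genotype was 0.36 (log2) for members and 0.22 for all tested genes, so that the same change is harder to call among the members.

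**Figure D1:**
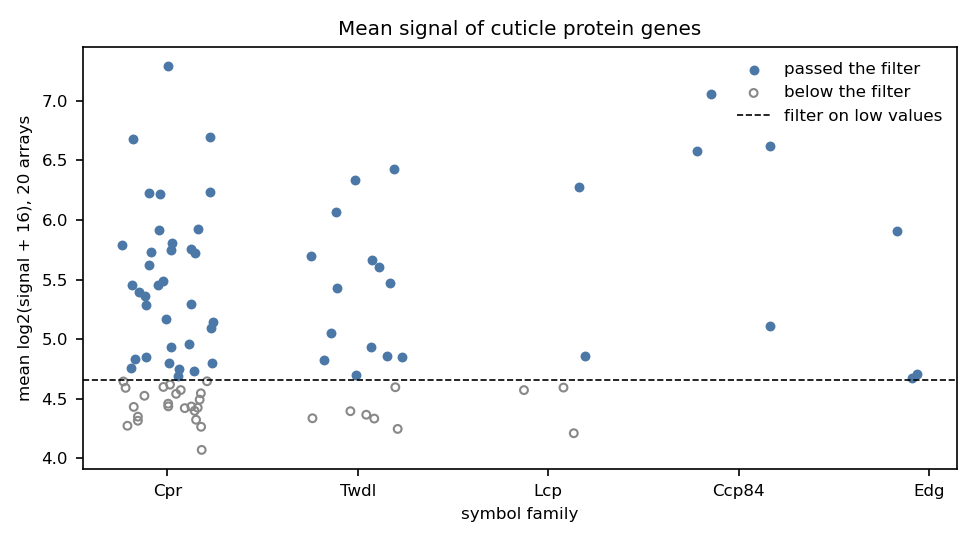
Mean log2(signal + 16) over 20 arrays of the 90 cuticle protein genes with a single-gene probe set, by symbol family on the x axis, jittered sideways. Filled points are the 58 genes above the filter at 4.66 (dashed line), and open points are the 32 below it; all 4 Ccp84 and 3 Edg genes passed, and 2 of 5 Lcp genes. Signals of different probe sets are not on a common scale of RNA abundance.

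Members lay on all major chromosome arms, with 4 on 2L, 10 on 2R, 20 on 3L, 21 on 3R and 3 on X. The Mef2 gene and the balancer used for sorting are on the second chromosome, which held 14 members, 24.1% against 37.8% of all tested genes. None of the members called below lies on it.

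Most cuticle protein genes were not called in any mutant and their median change stayed near 0, while a few single genes differed from the control by up to about 4-fold on the scale used. A gene was called where the limma p-value, adjusted by the Benjamini-Hochberg method over the 8358 tested genes, was under 0.05. Against the control, allele 65 had 3 of the 58 members called, where 6.07% of all tested genes were called. Of these, 1 was higher and 2 were lower, with backgrounds of 2.97% and 3.1%, and the median log2 change was -0.03 for members and 0.01 for all genes. Allele 424 had 5 called members against a background of 10.2% of genes, 1 higher and 4 lower (backgrounds 4.67% and 5.49%), and both medians were 0.01. Allele 113 had 2 called members against a background of 7.38%, 1 in each direction (backgrounds 3.43% higher and 3.95% lower), with medians of 0.01 for members and 0.00 for all genes. The null had 3 called members against a background of 19.8%, 2 higher and 1 lower (backgrounds 8.87% and 10.9%), and both medians were -0.01. After median centring, the split over all genes in the null was 970 higher and 746 lower in place of 741 and 915. All 4 comparisons use the same control arrays.

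The share of called members was 5.17% in allele 65, 8.62% in allele 424, 3.45% in allele 113 and 5.17% in the null. Each of these is below the share of all genes called in the same comparison. Among the 5885 genes with a mean no higher than that of the highest member, the called share was 4.64%, 7.61%, 5.64% and 14.6% in the same order of genotypes, and the members' share was above it for alleles 65 and 424. Members with a positive change numbered 26, 30, 29 and 29 of 58, in that order.

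**Figure D2:**
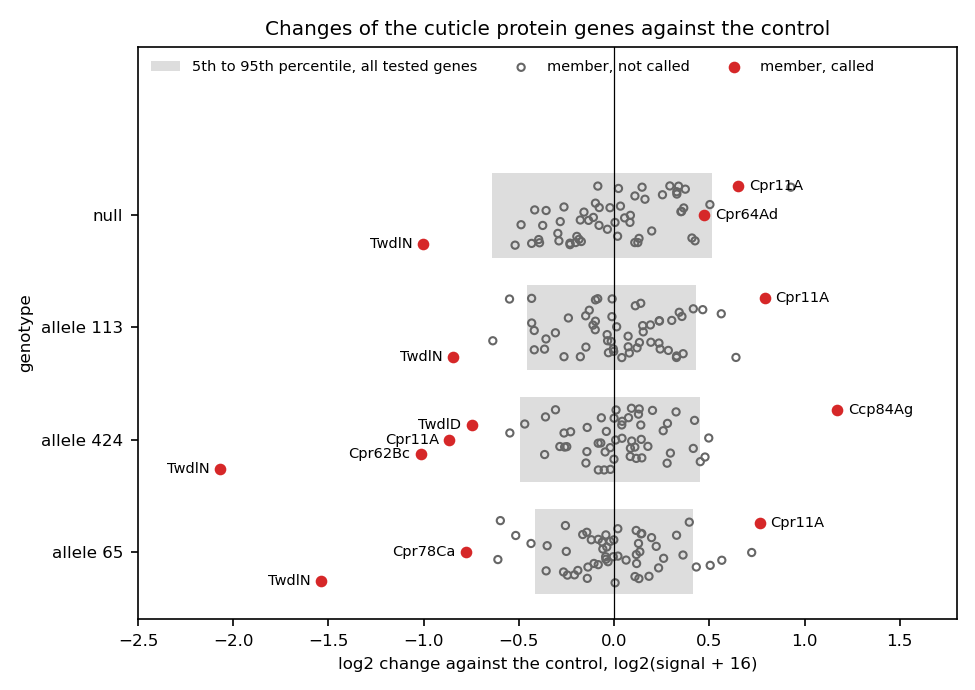
Log2 change against the control (x axis, on log2(signal + 16)) of the 58 members in each mutant genotype (y axis, 4 arrays each). Red points are called members and open points the others, jittered up and down. Grey bars span the 5th to 95th percentile of all 8358 tested genes, so 5% of all genes lie beyond each end by definition. Of the 58 members, 11 lie outside the bar in allele 65, 9 in allele 424, 7 in allele 113 and 3 in the null.

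Between neighbouring alleles of the series, allele 424 against allele 65 had 2 called members with a background of 4.61%, 1 higher and 1 lower (backgrounds 1.63% and 2.98%). Allele 113 against allele 424 had 3 with a background of 7.25%, 2 higher and 1 lower (backgrounds 4.09% and 3.16%), and 5 with the replicate number as a block. The null against allele 113 had 0 called members by limma with a background of 15.2%. At an unadjusted limma p under 0.05 there were 2 members, beside 27.0% of all tested genes. Over all 5 genotypes, the limma F-test called 6 members with a background of 27.9%. A linear trend along the activity order was called for 2 members with a background of 17.9%. TwdlN was higher at higher activity (limma adjusted p = 0.0451, background 9.95%) and Cpr11A lower (limma adjusted p = 0.00565, background 7.93%). These backgrounds depend on the scaling, since over all genes 832 were higher and 663 lower at higher activity, against 671 and 858 after each array was centred on its median. The TwdlN trend was no longer called after this centring, after quantile normalization or with the hybridisation day as a block, where the 2 called members were both lower at higher activity. In both genes allele 424 had the lowest mean, so the signal did not follow the activity order step by step. An ordered change would put the null lowest for TwdlN and the control lowest for Cpr11A.

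Intervals for the uncalled members were read on the log2(signal + 16) scale. In the null against control, the 95% interval lay within 1 log2 unit on either side of 0 for 49 of the 55 uncalled members. The corresponding numbers were 48 of 55 in allele 65, 49 of 53 in allele 424 and 47 of 56 in allele 113. The median interval reached 0.48 to either side of the estimate. For 17 of the 58 members the mean signal was under 16, and on this scale the complete loss of such a signal is itself a change of less than 1 log2 unit, so these intervals set no bound on a fall of the weak members.

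The called changes came from 7 genes. TwdlN and TwdlD are Tweedle genes, Ccp84Ag is a cuticle gene of the 84A cluster, and Cpr11A, Cpr62Bc, Cpr64Ad and Cpr78Ca belong to the Rebers and Riddiford class. Together they gave 18 called comparisons, and in all 18 no array of one genotype overlapped with those of the other. The share of all called genes without such overlap is not set beside this count. The count therefore cannot be read as particular to the members, or as evidence apart from the calls themselves. No Lcp or Edg gene among the members was called in any of the 7 pairwise comparisons.

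**Figure D3:**
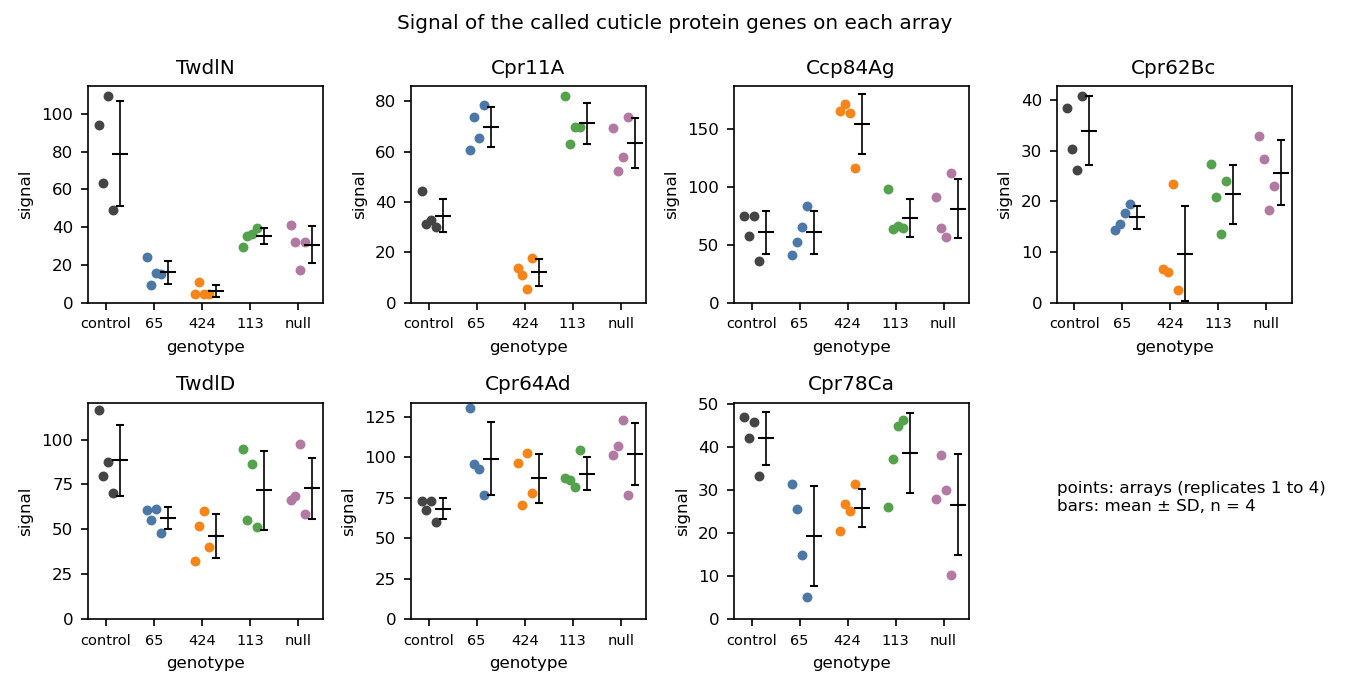
Signal (y axis, linear, from 0) of the 7 called members on each of the 20 arrays, by genotype on the x axis. Points are arrays and bars are the mean ± SD (n = 4); allele 424 is lowest for TwdlN, Cpr11A, Cpr62Bc and TwdlD and highest for Ccp84Ag.

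TwdlN, on 3R, encodes a Tweedle protein and was lower in every mutant genotype than in the control. Its signal on the control arrays was 94.3, 63.3, 109.5 and 49.2. In allele 65 it was 23.9, 9.38, 15.5 and 15.3, and in allele 424 it was 4.42, 10.8, 4.42 and 4.69. All control arrays lay above all arrays of both alleles, and the allele 424 mean (6.09 ± 3.16, SD, n = 4) was below the filter level. The signal was 29.5, 35.3, 36.5 and 39.6 in allele 113 and 41.3, 32.0, 17.3 and 32.4 in the null. These 8 arrays also lay below every control array, and every array of allele 113 lay above every array of allele 424.

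The log2 change of TwdlN from the control was -1.54 ± 0.20 (SE) in allele 65 (limma adjusted p = 1.15e-05) and -2.07 ± 0.20 in allele 424 (limma adjusted p = 9.54e-08). It was -0.85 ± 0.20 in allele 113 (limma adjusted p = 0.00844) and -1.004 ± 0.20 in the null (limma adjusted p = 0.000731). Allele 113 exceeded allele 424 by 1.22 ± 0.20 (limma adjusted p = 0.000295), whereas the null and allele 113 differed by -0.16, with a 95% interval from -0.57 to 0.26.

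TwdlN has a second probe set, which was also called in allele 424 against the control and not in the other genotypes. Its mean signal was 34.2 ± 5.69 in the control, 24.4 ± 11.0 in allele 65, 4.46 ± 5.60 in allele 424, 28.1 ± 10.3 in allele 113 and 26.5 ± 3.29 in the null (SD, n = 4). In a fit over all 13966 probe sets, its change was -1.32 in allele 424 (limma adjusted p = 0.000369). It was -0.35 in allele 65 (limma adjusted p = 0.559), -0.21 in allele 113 (limma adjusted p = 0.759) and -0.23 in the null (limma adjusted p = 0.592). Between neighbouring alleles, the second probe set was called for allele 424 against allele 65 (-0.97, limma adjusted p = 0.0135), where the brighter one was not (-0.53). Allele 113 against allele 424 was called on both, at 1.11 on the second (limma adjusted p = 0.00335). The brighter probe set, used above, carries the suffix that Affymetrix gave to probe sets matching several members of a sequence family, so signal from related genes in it was not separated. With the mean of both probe sets, the changes were -0.95 in allele 65, -0.53 in allele 113 and -0.62 in the null, and all remained called by limma. The fall in allele 113 was no longer called with a pseudocount of 1 (limma adjusted p = 0.0556).

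TwdlD, also on 3R, is a Tweedle gene in which dominant mutations alter the shape of the larval body. Its signal was 116, 79.5, 87.4 and 70.0 in the control and 32.6, 51.99, 60.0 and 40.2 in allele 424, with no overlap. The log2 change was -0.75 ± 0.18 (limma adjusted p = 0.00724). In allele 65 the mean was 56.2 ± 6.18 and all 4 arrays lay below the control arrays, but the change of -0.52 was not called (limma adjusted p = 0.0994). Allele 113 averaged 71.9 ± 22.01 and the null 72.8 ± 17.0 (SD, n = 4), and both overlapped with the control. With the fluidics module as a block, a matter taken up below, the change in allele 424 was -0.25 (limma adjusted p = 0.852).

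TwdlN and TwdlD lie in a run of 7 members on 3R with starts no more than 20 kb apart, with TwdlM, TwdlP, TwdlK, TwdlJ and TwdlR. In allele 424 against the control, 5 of these 7 had a negative change and 2 a positive one, over a range from -2.07 to 0.48. The other 5 genes of the run were not called in any pairwise comparison. TwdlM was the most variable of them, with 24.7, 58.8, 60.5 and 145.7 on the arrays of allele 113. Its largest change, 0.93 ± 0.35 in the null, was not called (limma adjusted p = 0.0654). A second, dimmer probe set of TwdlM, also above the filter, gave 0.13 there in the fit over all probe sets (limma adjusted p = 0.838).

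Cpr11A, on the X chromosome, moved in opposite directions in neighbouring alleles. Its signal was 44.4, 31.1, 32.7 and 30.0 in the control, 60.7, 73.8, 65.5 and 78.4 in allele 65, and 13.7, 11.0, 5.36 and 17.9 in allele 424. Every array of allele 65 lay above, and every array of allele 424 below, the control arrays. In allele 113 it was 82.2, 63.1, 69.7 and 69.7, and in the null 69.3, 52.4, 58.0 and 73.9, all above the control.

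Against the control, the log2 change of Cpr11A was 0.76 ± 0.15 in allele 65 (limma adjusted p = 0.00152) and -0.86 ± 0.15 in allele 424 (limma adjusted p = 0.000273). It was 0.79 ± 0.15 in allele 113 (limma adjusted p = 0.000935) and 0.65 ± 0.15 in the null (limma adjusted p = 0.00244). Allele 424 was lower than allele 65 by a log2 change of -1.63 ± 0.15 (limma adjusted p = 4.76e-08), and allele 113 was higher than allele 424 by 1.66 ± 0.15 (limma adjusted p = 2.8e-08). The null differed from allele 113 by -0.14, with a 95% interval from -0.45 to 0.17.

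Ccp84Ag, on 3R in the 84A cluster of cuticle genes, was higher in allele 424 than in the control and both neighbouring alleles. Its signal was 74.7, 57.9, 74.6 and 35.7 in the control and 165, 172, 164 and 116 in allele 424. It was 40.8, 52.7, 65.7 and 83.8 in allele 65, and 97.7, 63.9, 66.4 and 64.3 in allele 113. All 4 arrays of allele 424 lay above all arrays of these 3 genotypes, and above the null arrays, which ran from 56.3 to 112.3.

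Allele 424 exceeded the control by 1.17 ± 0.20 (log2, SE; limma adjusted p = 0.000292) and allele 65 by 1.17 ± 0.20 (limma adjusted p = 0.000557). Allele 113 was below allele 424, with a change of -0.94 ± 0.20 (limma adjusted p = 0.00433). In alleles 65 and 113 and the null, the changes from the control were 0.00, 0.24 and 0.34, and none was called by limma. Its neighbours Ccp84Ac, Ccp84Ad, Ccp84Ae and Edg84A were not called in any pairwise comparison. In allele 424 against the control all 5 genes of this run had a positive change, from 0.08 to 1.17.

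Cpr62Bc, on 3L, was lower in allele 424 than in the control. Its signal was 38.4, 30.3, 26.2 and 40.8 in the control, and 6.63, 5.95, 23.4 and 2.49 in allele 424. The groups did not overlap, although replicate 3 of allele 424 came close to the lowest control array. The log2 change was -1.01 ± 0.20 (limma adjusted p = 0.00135). In allele 65 the signal was 16.8 ± 2.24 (SD, n = 4) and all arrays lay below the control, but the change of -0.60 was not called (limma adjusted p = 0.0885). Allele 113 averaged 21.4 ± 5.85 and the null 25.7 ± 6.39, against 33.9 ± 6.81 in the control. Both overlapped with the control and neither was called.

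Cpr64Ad, on 3L, was higher in the null, with 101.4, 107, 123 and 76.7 against 72.6, 67.6, 73.1 and 59.7 in the control. The groups did not overlap, but the lowest null array lay just above the highest control array. The log2 change was 0.47 ± 0.14 (limma adjusted p = 0.0194), and it was no longer called without null replicate 3 (0.39, limma adjusted p = 0.0788) or without control replicate 4 (0.42, limma adjusted p = 0.0602). The changes in alleles 65, 424 and 113 were 0.43, 0.28 and 0.33, not called by limma. All arrays of allele 65 (76.9 to 130.2) and allele 113 (81.8 to 104.5) also lay above the control arrays, and those of allele 424 overlapped with them. Its neighbours in the 64A run, Cpr64Aa, Cpr64Ab and Cpr64Ac, were not called in any pairwise comparison.

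Cpr78Ca, on 3L, was lower in allele 65, with 31.5, 25.6, 14.9 and 5.12 against 47.0, 42.1, 45.9 and 33.4 in the control. The groups did not overlap, and the arrays of allele 65 were widely spread. The log2 change was -0.78 ± 0.23 (limma adjusted p = 0.0394). In allele 424 the signal was 20.6, 26.7, 25.2 and 31.4, also below every control array, but the change of -0.47 was not called (limma adjusted p = 0.213). The null averaged 26.6 ± 11.8 (SD, n = 4) and overlapped with the control (change -0.49, limma adjusted p = 0.141). Allele 113 averaged 38.7 ± 9.31, against 42.1 ± 6.16 in the control, and overlapped with it too. The call in allele 65 was the least stable of the 18. It was lost in 10 alternatives, among them leaving out replicate 4 of allele 65, whose run record notes an aborted fluidics run (-0.55, limma adjusted p = 0.163).

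The 10 members with the highest mean over the 20 arrays were Cpr64Ac, Ccp84Ad, Cpr64Ad, Cpr64Aa, Ccp84Ae, Ccp84Ag, TwdlM, TwdlD, Lcp65Aa and Cpr92A, of which Cpr64Ad, Ccp84Ag and TwdlD are the called genes described above. Cpr64Ac had 128 ± 15.2 in the control, 142 ± 25.1 in allele 65, 141 ± 17.3 in allele 424, 160.1 ± 28.5 in allele 113 and 138 ± 6.62 in the null (SD, n = 4). The genotypes overlapped, and its change from the control ran from 0.11 to 0.28 with none called by limma.

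Cpr64Aa averaged 72.9 ± 34.8 in the control and 109.9 ± 26.4 in allele 113, a change of 0.56 that was not called (limma adjusted p = 0.139). Ccp84Ad and Ccp84Ae varied several-fold between arrays of one genotype. Ccp84Ad had 235, 95.6, 86.1 and 162 on the control arrays, and Ccp84Ae had 92.5, 31.3, 133 and 171 on the null arrays. Lcp65Aa, a larval cuticle protein gene, averaged 51.7 ± 24.3 in the control and between 65.4 and 71.1 in the mutants, with changes from 0.29 to 0.42 that were not called by limma. Cpr92A averaged between 55.8 and 67.6 in all 5 genotypes.

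The 3 Edg genes, Edg78E, Edg84A and Edg91, had changes between -0.55 and 0.19 in the 4 mutants against the control. Over all members, the genotype with the highest mean was the control for 14 genes, allele 65 for 8, allele 424 for 13, allele 113 for 13 and the null for 10. The lowest mean fell in the control for 14, in allele 65 for 12, in allele 424 for 11, in allele 113 for 10 and in the null for 11. Neither end of the activity order held most of the extremes.

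The array runs touch these values. The 4 control arrays were all processed on fluidics module 4, where the other arrays were null replicates 1 and 3. No array of allele 65, 424 or 113 shared that module, so that a fit with the module as a block ties these alleles to the control through the null arrays on modules 4 and 3. With this block, 10 of the 18 changes stayed called by limma and 8 did not. The 8 were Ccp84Ag, Cpr62Bc and TwdlD in allele 424, Cpr78Ca in allele 65, TwdlN in allele 113, and Cpr11A in alleles 65, 424 and 113, each against the control. Their limma adjusted p then lay between 0.124 and 0.852. In these comparisons the block raised the median standard error over all genes 1.85 to 2.03 times. Genotype and module cannot be told apart for these alleles except through those null arrays, so the sizes under the block are given without a reading. TwdlD in allele 424 moved most. Against the control, Ccp84Ag was then at 1.25 and Cpr62Bc at -1.06 in allele 424, TwdlN at -1.05 in allele 113 and Cpr78Ca at -0.72 in allele 65. Cpr11A was at 0.84 in allele 65, -0.66 in allele 424 and 0.94 in allele 113, and TwdlD in allele 424 at -0.25. TwdlN stayed called in allele 65 (-1.85, limma adjusted p = 0.0174) and allele 424 (-2.44, limma adjusted p = 0.0026). Within module 4 the null differed from the control by 0.66 for Cpr11A, 0.60 for Cpr64Ad and -1.08 for TwdlN.

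The arrays were hybridised on 4 days, and allele 65 had arrays on days 1 and 3 alone. Since no arrays overlapped, all 18 called changes necessarily had the same sign on each day, and the days differ in size alone. TwdlN in allele 424 differed from the control by -2.43, -1.56, -2.62 and -1.66 on days 1 to 4, and Cpr11A by -1.02, -0.81, -1.19 and -0.44. Cpr62Bc in allele 424 was close to the control on day 3 (-0.10) and lower on the other days (-1.27, -1.08 and -1.62). With day as a block, 17 of the 18 changes stayed called by limma, and Cpr78Ca in allele 65 did not (-0.79, limma adjusted p = 0.0609).

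**Figure D4:**
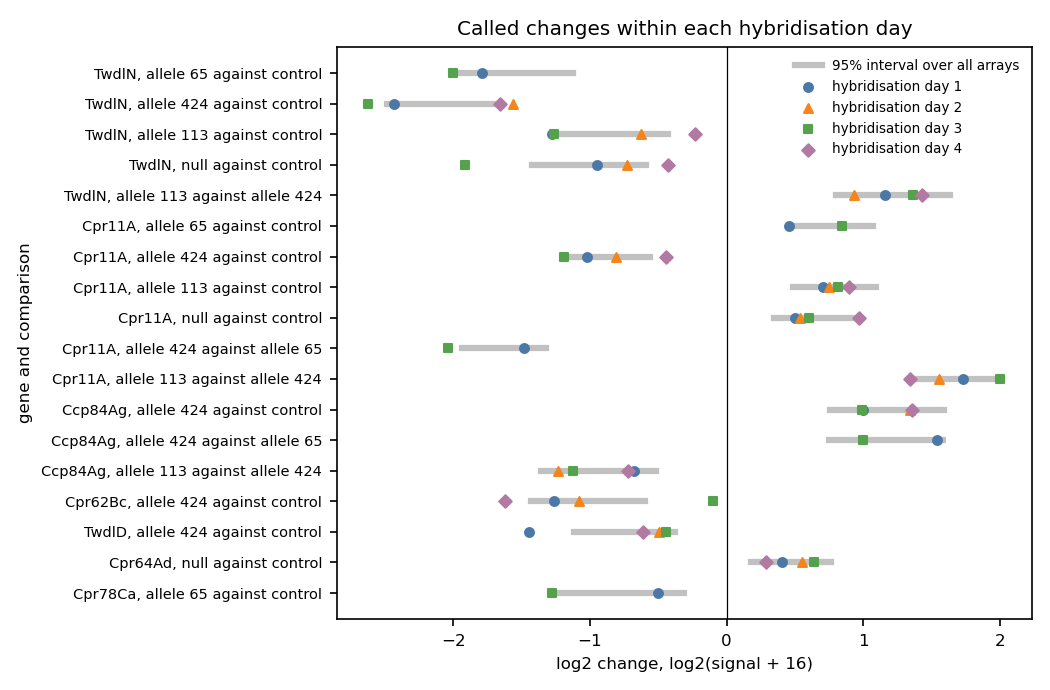
Log2 change (x axis, on log2(signal + 16)) of each of the 18 called gene and comparison pairs (y axis) within each hybridisation day, with 1 to 2 arrays of a genotype a day. Points are days and grey bars the 95% interval over all arrays; the points show how the size of each change varied between days, from -0.10 to -1.62 for Cpr62Bc in allele 424.

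Other genes that build or shape the cuticle were read from lists of known function, with the shares of all tested genes called against the control being 6.07% in allele 65, 10.2% in allele 424, 7.38% in allele 113 and 19.8% in the null. Of 21 tested genes for chitin synthesis, export and remodelling, 4 were called in allele 65 and 5 in allele 424, all of them lower, and 3 were higher and 3 lower in both allele 113 and the null. In the null these 6 of 21 stood beside 19.8% of all genes, and in allele 65 the 4 of 21 beside 6.07%. Their median change was -0.05, -0.18, -0.10 and -0.09 in that order. Cht5, a chitinase, had 201 ± 49.5 in the control and 129 ± 21.6 in allele 424 (SD, n = 4), a change of -0.56 (limma adjusted p = 0.0161), and rose by 0.52 in allele 113 (limma adjusted p = 0.0306). A list of 7 chitin-binding genes held obstructor-type genes and also teq (Tequila), a serine protease with chitin-binding domains. Of the 7, 2 were higher in allele 65, 1 was higher and 2 were lower in allele 424, 2 were higher in allele 113, and 1 was higher and 1 lower in the null. The gene higher in allele 424 (1.09) and in the null (2.55, limma adjusted p = 1.47e-11) was teq. It was also 1 of the 2 higher in alleles 65 and 113. Gasp, a chitin-binding protein of the tracheal lining, averaged 134 ± 17.6 in the control and 245 ± 42.3 in allele 113, a change of 0.79 (limma adjusted p = 0.0013).

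Of 11 genes for cuticle tanning, 1 was lower in allele 65, 2 in allele 424 and 1 in the null. Pu, the GTP cyclohydrolase that supplies the cofactor for tanning, had 83.4 ± 19.0 in the control and 37.5 ± 7.16 in allele 424, a change of -0.88 (limma adjusted p = 0.000119). Of 7 ZP-domain apical matrix genes, 1 was lower in allele 424, 1 higher in allele 113 and 1 lower in the null. The last was pio (piopio), with 248 ± 20.6 in the control and 40.3 ± 9.17 in the null, a change of -2.24 (limma adjusted p = 1.12e-13). By limma, 0 of 10 other cuticle structure genes and 0 of 11 Osiris family genes were called against the control in any mutant. At an unadjusted limma p under 0.05 there was 1 of the 10 in allele 113, and of the Osiris genes 3 in allele 65, 1 in allele 424 and 1 in allele 113. The shares of all tested genes under that unadjusted limit were 16.6% in allele 65, 23.2% in allele 424 and 18.7% in allele 113. Of 8 regulators of epidermis and cuticle, 1 was lower in allele 424 and 1 higher in the null, the latter grh (grainy head), the transcription factor of epidermal barrier genes, at 0.999 (limma adjusted p = 7.99e-06).

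Of 17 genes of the ecdysone hierarchy, 1 was called lower in allele 65, 1 higher and 4 lower in allele 424, 1 lower in allele 113, and 1 higher and 4 lower in the null. The 5 of 17 in allele 424 stood beside 10.2% of all genes, and the 5 of 17 in the null beside 19.8%. ImpE2, an ecdysone-inducible gene first found in imaginal discs, had 728 ± 111 in the control and 51.9 ± 19.0 in allele 424, a change of -3.48 (limma adjusted p = 2.11e-13), and was not called in the other mutants.

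Markers of the tissues that secrete cuticle, and of differentiated muscle, were read in the same way. Lists for fat body and hemocytes and for the nervous system are not described here. The summed signal of 11 epidermis and septate junction genes ran from 3594 to 3975 on the control arrays, 3830.5 to 4172 in allele 65, 3307 to 3627 in allele 424, 3720 to 4217 in allele 113 and 3618 to 3911 in the null. Of these 11, 1 was called lower in allele 65, 3 in allele 424 and 2 in the null, where 1 was higher, beside 6.07%, 10.2% and 19.8% of all genes. The higher one was grh, already given above, since this list shares grh and ovo with the regulators. Among the 3 lower in allele 424 were Nrx-IV (-1.22, limma adjusted p = 2.71e-10) and sha (-0.95, limma adjusted p = 0.000292). The sum over 8 tracheal genes was 6071 to 7214 in the control, 7041 to 7535 in allele 65, 6224 to 6870 in allele 424, 7768 to 8608 in allele 113 and 6896 to 8066 in the null. Every array of allele 113 lay above the control arrays in this sum, and 3 of the 8 genes were called higher there, beside 7.38% of all genes. The tracheal list shares verm, serp, Gasp, pio, rib and trh with the cuticle lists above, and verm alone, a chitin deacetylase gene, averaged 1909 in the control and 2706 in allele 113. Over 8 foregut and hindgut genes the sum was 1233 to 1377 in the control, 1326 to 1435 in allele 65, 1232 to 1442 in allele 424, 1134 to 1395 in allele 113 and 994 to 1184 in the null. All null sums lay below the control sums. In the null, bowl, Dr and bin were called lower, 3 of these 8 genes (median change -0.37), beside 19.8% of all genes. Dr and bin were the 2 lower in allele 113, where 1 was higher. Dr was the lower one in allele 424, where 1 was called in each direction. Since bin is a gene of the visceral mesoderm and Dr is not confined to the gut, these calls do not read the gut epithelium alone. For 12 markers of differentiated muscle it was 4268 to 5177 in the control and 1050.4 to 1393 in the null, where 11 of the 12 were called lower. Each of these 4 marker lists held at least 4 genes above the filter level on every array. What part these tissues have in the changes of single cuticle genes was not tested.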

How the data were processed

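Each sample was 1 Affymetrix DrosGenome1 array. The authors deposited linear MAS5 signal, an intensity per probe set, per the submitters' processing notes, and the 2%-trimmed mean of every array was 100.0, so the values had been scaled. Probe sets were named from the platform annotation, with symbols updated through gene IDs to a RefSeq gene table of assembly Release 6. Of 14010 probe sets, 12443 had 1 symbol, 327 several and 1196 none, beside 44 controls. Sets with several symbols named no gene.

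The brightest probe set stood for a gene, and genes with a mean log2(signal + 16) under 4.66, the 25th percentile over all probe sets that are not controls, were left out. The pseudocount of 16 makes changes of weak genes smaller. A model with a mean for each of the 5 genotypes was fitted to all 20 arrays in limma 3.58.1 (R 4.3.3), with a mean-variance trend. The number of arrays limits the precision. The script was tested on simulated data. No sequences were used here.

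Genes given in full were the 10 members with the highest mean and every called member. From the other lists, up to 3 genes with the smallest F-test p could be named. The members and lists were chosen with earlier results of these data known. Alternatives changed the pseudocount, filter, probe set rule, normalization, variance model, blocks, groups in the fit and arrays.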

Additional observations from a re-analysis of the deposited data

Results flagged for a closer look

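A pair of probe sets that the annotation assigns to several Lcp genes at once, and that therefore belong to no member, were higher in alleles 65 and 424 than in the other genotypes. Neither can be assigned to a single gene. On the brighter of them, annotated to 3 genes, the signal was 3.61, 3.76, 7.94 and 8.57 in the control, 154, 132, 113 and 138 in allele 65, and 115, 123, 115 and 100.4 in allele 424. It was 13.6, 20.4, 3.11 and 14.3 in allele 113 and 12.8, 4.70, 3.09 and 7.93 in the null, so that all 8 arrays of alleles 65 and 424 stood far above the other 12. In a fit over all 13966 probe sets, its log2 change from the control was 2.77 ± 0.18 (SE) in allele 65 (limma adjusted p = 2.33e-09) and 2.57 ± 0.18 in allele 424 (limma adjusted p = 2.96e-09). Allele 113 against allele 424 gave -2.20 (limma adjusted p = 4.76e-08). The dimmer one, annotated to 2 genes, averaged 3.44 ± 4.67 in the control, 21.7 ± 8.49 in allele 65, 18.7 ± 7.32 in allele 424, 3.62 ± 3.06 in allele 113 and 3.08 ± 3.16 in the null (SD, n = 4). Its changes were 0.95 in allele 65 (limma adjusted p = 0.00398), 0.84 in allele 424 (limma adjusted p = 0.00821) and -0.81 for allele 113 against allele 424 (limma adjusted p = 0.0147). The control and null means lie below the filter level of 9.29 for both probe sets (5.97 and 7.12 for the brighter one), and so does the allele 113 mean of the dimmer one. The sizes of these changes therefore rest on groups near background, and the pseudocount sets them in part. The cause of this pattern was not tested.

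Single arrays stood apart from the other 3 of their genotype in 6 of 70 groups examined by Dixon's criterion over the 14 genes given in full, where chance gives about 1 in 20. Ccp84Ae had 28.9 on control replicate 3, against 75.9 to 88.4 on the other control arrays. Ccp84Ag had 116 on replicate 4 of allele 424, against 164 to 172, and 97.7 on replicate 1 of allele 113, against 63.9 to 66.4. Lcp65Aa had 29.0 on null replicate 1, against 76.0 to 79.8. Cpr92A had 37.5 on control replicate 2, against 63.8 to 67.7. TwdlN had 10.8 on replicate 2 of allele 424, against 4.42 to 4.69. The 6 cases fell on 6 different arrays.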

How the results depend on the processing

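None of the 18 called changes reversed under any alternative run, and 549 of 569 refits kept the call. Counts of called members moved by more than 1.5 times in the cases below, the replicate block included. The shares of all genes called in these runs, and in those that leave out an array, are not set beside the counts. A moved count therefore cannot be read as particular to the members. With the fluidics module as a block they became 1 in allele 65, 1 in allele 424 and 0 in allele 113 against the control (by limma, with 4 members at an unadjusted p under 0.05 in the last), 1 for the null against allele 113 and 1 for the trend; the larger standard errors of this block are given above. With the lowest 50% of genes left out, 16 members remained and the counts were 1 in allele 65, 3 in allele 424, 1 in allele 113, 1 for the trend and 3 for the F-test. With a pseudocount of 1, 1 was called in allele 113 and 1 for the trend. The trend count was also 1 with the mean of all probe sets and with no filter. Without the filter, 1 of the 32 genes below it was called, TwdlL in allele 113 (limma adjusted p = 0.0452).

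Leaving out each array in turn, the counts ranged from 2 to 4 in allele 65, 5 to 5 in allele 424, 2 to 3 in allele 113 and 2 to 4 in the null, each against the control. They ranged from 2 to 3 for allele 424 against allele 65, 3 to 4 for allele 113 against allele 424, 0 to 1 for the null against allele 113, 1 to 3 for the trend and 4 to 8 for the F-test. The count of 1 for the null against allele 113 came without null replicate 4. The trend count was 1 without replicate 1, 2 or 3 of allele 113, 1 of allele 424, 3 or 4 of allele 65, 1 of the control, or 2 or 3 of the null.

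The labels do not say that a replicate number marks a batch, but in the run records it is the hybridisation day for all genotypes except allele 65. For this check the mean of its genotype was subtracted from each gene, so the correlations are of the remainders and not of the signals. On these remainders, same-numbered arrays correlated above 0.1 in 10 of 40 pairs, and 17 of 20 arrays correlated best with their own number. With replicate number as a block, 5 members were called for allele 113 against allele 424 in place of 3 (4 with hybridisation day), and all 18 changes stayed called. Centring each array on its median turned the split over all genes for the null against allele 113 from 569 higher and 699 lower to 722 and 559, beside the splits given above, and changed no call of the 18. Signals near background limit what can be read from the weaker members.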
